A study of Mus musculus with 10 samples.

Results

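The genes described here encode 10 factors that macrophages release during wound repair. They comprise insulin-like growth factor 1 (Igf1), the platelet-derived growth factor (PDGF) chains Pdgfa, Pdgfb and Pdgfc, transforming growth factor beta 1 (Tgfb1), heparin-binding EGF-like growth factor (Hbegf), vascular endothelial growth factor B (Vegfb), fibronectin (Fn1), thrombospondin 1 (Thbs1) and oncostatin M (Osm). They were chosen with earlier results of these data known, and their rows were taken by gene symbol. All 10 were found among the 46957 loci of each table, each on a locus that lists no other symbol, and all 10 passed the filter on low counts, which left 12501 loci.

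The cells were tumour-associated macrophages of BALB/cJ mice, isolated by flow sorting from tumours of the 4T1 mouse mammary carcinoma line grown in the mammary fat pad. The sort kept viable CD45+ cells positive for CD11b and F4/80 and negative for CD8, Ly6C and Ly6G. The treated group (5 samples) received JHU083, a prodrug of the glutamine antagonist 6-diazo-5-oxo-L-norleucine, at 1 mg/kg from day 7 to day 13, and the control group (5 samples) received PBS vehicle. Tumours of both groups were taken on day 14, and the age of the mice is not given in the sources used here. The mice of both groups carry no engineered allele named in the labels, all tumours came from a single injected line, and the labels do not say whether each sample came from a separate animal, so p-values measure the spread between these samples, which may be technical in part.

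Macrophages at a wound clear debris and then release factors that act on the cells that rebuild the tissue. IGF1 supports survival and growth through its receptor tyrosine kinase, PDGFs recruit and expand mesenchymal cells through PDGF receptors alpha and beta, and TGF-beta 1 drives matrix production once freed from its latent complex. Fibronectin and thrombospondin 1 are matrix proteins bound by integrins and by CD36 and CD47, HB-EGF signals through EGF receptors, VEGF-B binds FLT1 and NRP1, and oncostatin M signals through OSMR paired with gp130. In tumours the same factors are known to act on cancer cells, fibroblasts and vessels.

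The promoters of these genes differ in base composition. RefSeq windows (GRCm38.p6) were matched for Igf1, Pdgfa, Pdgfc, Tgfb1 and Vegfb. Of these 5 genes, 3 (Pdgfc, Tgfb1 and Vegfb) had a window of 250 bases before the start that was clear of annotated exons. The windows lie at chr3:81036166-81036415 on the plus strand (Pdgfc), chr7:25686752-25687001 on the plus strand (Tgfb1) and chr19:6987652-6987901 on the minus strand (Vegfb). They are written 5′ to 3′ along the gene, with capitals marking matches to the GC box GGGCGG on either strand.
Pdgfc: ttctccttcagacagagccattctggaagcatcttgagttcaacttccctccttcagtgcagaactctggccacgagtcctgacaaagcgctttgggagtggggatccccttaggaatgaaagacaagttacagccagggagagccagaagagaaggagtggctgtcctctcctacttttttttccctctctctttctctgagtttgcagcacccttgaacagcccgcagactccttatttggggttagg
Tgfb1: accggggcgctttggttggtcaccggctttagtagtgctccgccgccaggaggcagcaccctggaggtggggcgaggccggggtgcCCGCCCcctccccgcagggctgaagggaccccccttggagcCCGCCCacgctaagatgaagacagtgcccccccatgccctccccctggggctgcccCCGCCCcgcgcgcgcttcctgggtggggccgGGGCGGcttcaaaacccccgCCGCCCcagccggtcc
Vegfb: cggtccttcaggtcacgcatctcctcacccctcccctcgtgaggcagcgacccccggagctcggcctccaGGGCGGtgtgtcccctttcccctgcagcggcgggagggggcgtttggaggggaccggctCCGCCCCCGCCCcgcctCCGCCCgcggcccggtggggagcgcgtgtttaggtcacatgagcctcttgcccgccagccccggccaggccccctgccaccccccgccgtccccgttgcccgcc
The Tgfb1 window has a GC content of 75.2% and 5 GC boxes, the Vegfb window 76.4% and 4 GC boxes, and the Pdgfc window 50.8% and 0. Of the 32851 mouse windows of this length in the table, 32.7% hold a GC box. No match was found in these 3 windows for TATAAA (in 12.4% of all windows), TGANTCA (the AP-1 motif, 6.7%), the STAT6-type motif (TTC and GAA with any 4 bases between them, 5.9%), GAGGAA (a PU.1-type motif, 23.3%) or CACGTG (the E-box, 6.0%), searched on both strands with overlapping matches counted. The Igf1 and Pdgfa windows overlap annotated exons. The Igf1 window has a GC content of 52.8%, 0 GC boxes, 1 TGANTCA match and 1 GAGGAA match. The Pdgfa windows have 66.4% and 72.4%, with 1 and 2 GC boxes, and the latter holds 1 GAGGAA match. These are letter matches in a short window and do not say which factors bind.

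The libraries held 11147870 to 15740701 fragments each. The defining macrophage genes were abundant in every sample: the 12 markers of the macrophage list summed to 20244 to 25229 CPM (fragment counts relative to library size, with sizes scaled by TMM) in vehicle and 25402 to 33039 in JHU083 samples. Ly6g, whose product was used to exclude granulocytes in the sort, was at most 0.17 CPM. In 5 samples (vehicle replicates 2, 4 and 5 and JHU083 replicates 1 and 3) the ribosomal RNA locus Rn18s-rs5 and Gm42418 are listed at 0, while in the other 5 they held 2.9% to 5.6% of fragments. The values of the 10 factors are therefore also given within each of these sets. In such bulk samples, fewer cells of a type and less RNA per cell cannot be told apart.

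Of the 10 factors, 6 rose with JHU083 (Igf1, Pdgfc, Thbs1, Fn1, Pdgfb and Pdgfa), 1 fell (Tgfb1) and 3 did not pass the test (Hbegf, Vegfb and Osm). Over all 12501 loci tested, 18.4% were called higher and 18.3% lower by the quasi-likelihood test of edgeR at an adjusted p under 0.05. The values of the 2 groups did not overlap for any of the 7 called factors; 10.7% of all loci tested were called higher without overlap and 10.8% were called lower without overlap. The median log2 fold change was 0.45 over the 10 factors and 0.01 over all loci tested. Since the factors were chosen with earlier results known, these values describe the list and do not test it. Igf1, Pdgfc and Thbs1 rose by more than 1 log2 unit, and no factor fell by that much; among all loci tested 2.10% were called higher and 4.84% lower by at least that amount.

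**Figure D1:**
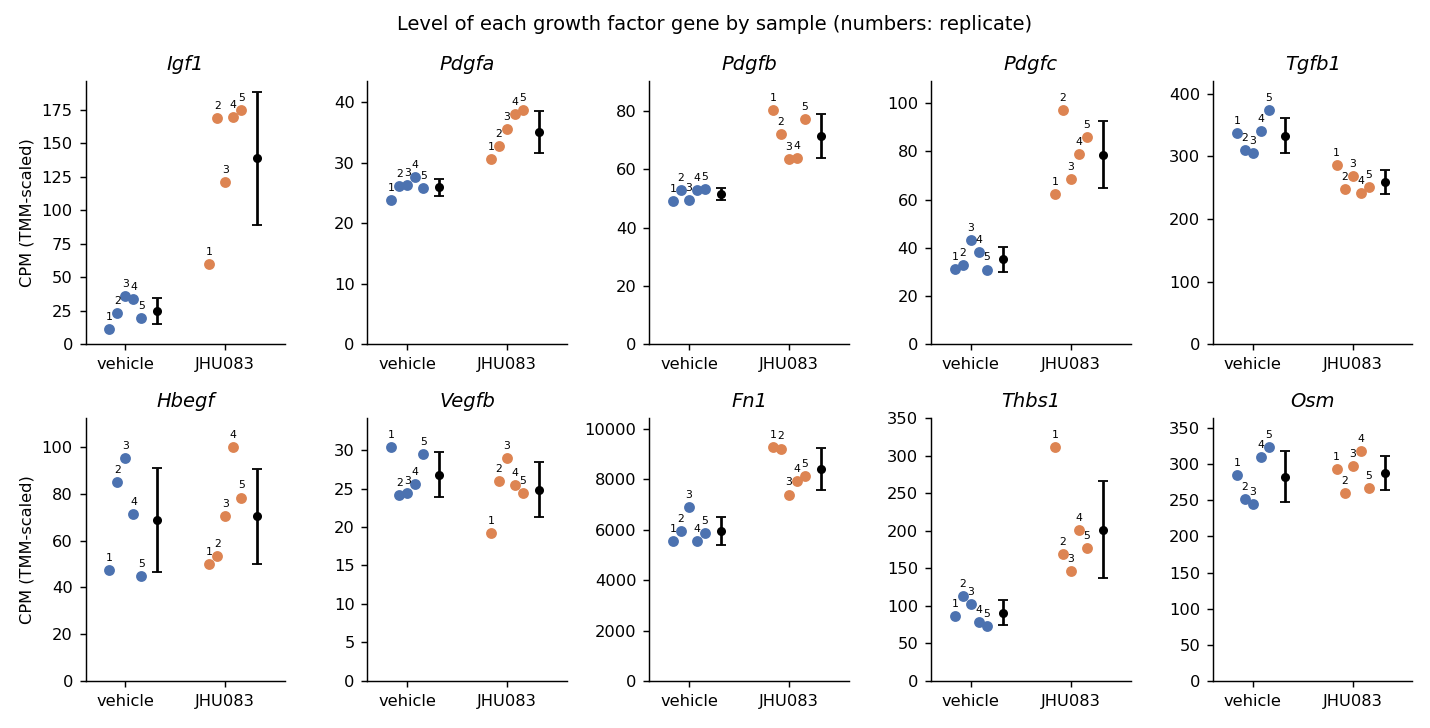
Each panel plots the level of 1 gene in CPM (TMM-scaled; axes start at 0) in the 5 vehicle samples (blue) and the 5 JHU083 samples (orange), numbered by replicate, with the group mean and SD in black. The groups are apart for Igf1, Pdgfa, Pdgfb, Pdgfc, Tgfb1, Fn1 and Thbs1, and they overlap for Hbegf, Vegfb and Osm.

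Igf1, the trophic hormone and macrophage product that signals through IGF1R, had the largest change of the 10. Its level in vehicle replicates 1 to 5 was 11.5, 23.6, 35.7, 33.7 and 19.6 CPM, and in JHU083 replicates 1 to 5 it was 59.5, 168.6, 120.9, 169.9 and 174.6 CPM. The lowest treated sample was above the highest control, and JHU083 replicate 1 stood well below the other treated samples. The mean rose from 24.8 ± 10.1 CPM (SD, n = 5) to 138.7 ± 49.4 CPM (SD, n = 5). On the log2 scale the rise was 2.49 ± 0.31 (SE; 5.61-fold), with an adjusted p of 4.81e-05. The gene lies at chr10:87858265-87937042 on the plus strand in GENCODE M21 (GRCm38).

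The PDGF genes encode the chains of a dimeric growth factor for mesenchymal cells, and all 3 measured here rose. PDGF-A and PDGF-B are classical chains stored in platelets and made by macrophages, and PDGF-C is secreted as a latent protein activated by proteolysis. Pdgfc (chr3:81036416-81214040, plus strand) stood at 31.3, 32.8, 43.2, 38.1 and 31.0 CPM in the vehicle samples, and at 62.3, 97.1, 68.4, 79.1 and 86.2 CPM in the JHU083 samples. Every treated sample was above every control by a clear gap. The log2 fold change was 1.16 ± 0.13 (SE; 2.23-fold; adjusted p = 1.9e-05), from 35.3 ± 5.28 to 78.6 ± 13.9 CPM (SD, n = 5 each).

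Pdgfb (chr15:79995874-80014977, minus strand) was 49.2, 52.9, 49.6, 52.9 and 53.4 CPM in vehicle and 80.3, 72.2, 63.7, 63.8 and 77.4 CPM in JHU083 samples. The controls were tightly grouped and all treated samples lay above them. The rise was 0.47 ± 0.08 on the log2 scale (SE; 1.39-fold; adjusted p = 0.000606). Pdgfa (chr5:138976014-138997370, minus strand) was 23.8, 26.1, 26.4, 27.7 and 25.8 CPM in vehicle and 30.6, 32.8, 35.6, 38.1 and 38.7 CPM in JHU083 samples. Again the groups were apart, with a narrow gap between the highest control and the lowest treated sample. The log2 fold change of Pdgfa was 0.44 ± 0.09 (SE; 1.35-fold; adjusted p = 0.00149).

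Tgfb1 (chr7:25687002-25705077, plus strand), which encodes the latent cytokine that drives collagen and fibronectin production, moved the other way. The vehicle samples held 337.1, 309.6, 305.9, 340.6 and 373.7 CPM and the JHU083 samples 286.9, 248.2, 268.1, 240.8 and 251.1 CPM. All treated samples were below all controls, with JHU083 replicate 1 the nearest to them. The mean fell from 333.4 ± 27.4 to 259.0 ± 18.5 CPM (SD, n = 5 each). The change on the log2 scale was -0.36 ± 0.08 (SE; 0.78 of the vehicle level; adjusted p = 0.00201). It was the only called factor of the 10 that decreased.

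The matrix genes both rose. Fn1 (chr1:71585520-71653200, minus strand), which encodes fibronectin, had 5549, 5949, 6898, 5560 and 5857 CPM in vehicle and 9282, 9221, 7396, 7943 and 8133 CPM in JHU083 samples. The highest control, vehicle replicate 3, was close to the lowest treated sample, JHU083 replicate 3. The log2 fold change was 0.49 ± 0.11 (SE; 1.41-fold; adjusted p = 0.00438), from 5962 ± 552 to 8395 ± 828 CPM (SD, n = 5 each).

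Thbs1 (chr2:118111876-118127133, plus strand) encodes thrombospondin 1, a matricellular protein that inhibits vessel growth and can activate latent TGF-beta. It was at 86.1, 113.2, 102.4, 77.9 and 73.7 CPM in vehicle and at 311.5, 168.9, 146.9, 200.7 and 177.5 CPM in JHU083 samples. All treated samples exceeded all controls, and JHU083 replicate 1 was far above the other treated samples. The log2 fold change was 1.15 ± 0.18 (SE; 2.22-fold; adjusted p = 0.000291), and it was 0.94 without JHU083 replicate 1, where the call held.

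The other factors were not called. Osm (chr11:4236420-4241026, plus strand), an IL-6 family cytokine of activated myeloid cells, was at 284.8, 251.4, 244.9, 309.4 and 323.8 CPM in vehicle and 293.0, 260.2, 297.3, 318.5 and 267.4 CPM in JHU083 samples. The groups covered almost the same range, and the log2 fold change was 0.02 ± 0.09 (SE; adjusted p = 0.866). Vegfb (chr19:6982473-6987651, minus strand), a VEGF family ligand, was at 30.4, 24.1, 24.4, 25.6 and 29.5 CPM in vehicle and 19.2, 26.0, 29.0, 25.5 and 24.4 CPM in JHU083 samples. These also overlapped, with JHU083 replicate 1 the lowest of all, and the log2 fold change was -0.11 ± 0.11 (SE; adjusted p = 0.458).

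Hbegf, whose product is a membrane-bound EGF-like ligand released by shedding, was at 47.4, 85.1, 95.1, 71.2 and 45.0 CPM in vehicle and 49.9, 53.3, 70.6, 100 and 78.4 CPM in JHU083 samples. It varied about as widely within each group as over all samples. The log2 fold change was 0.03 ± 0.22 (SE; adjusted p = 0.917), so the uncertainty of Hbegf was larger than that of Osm and Vegfb. For these 3 genes a missed threshold does not show that the groups had equal levels.

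**Figure D2:**
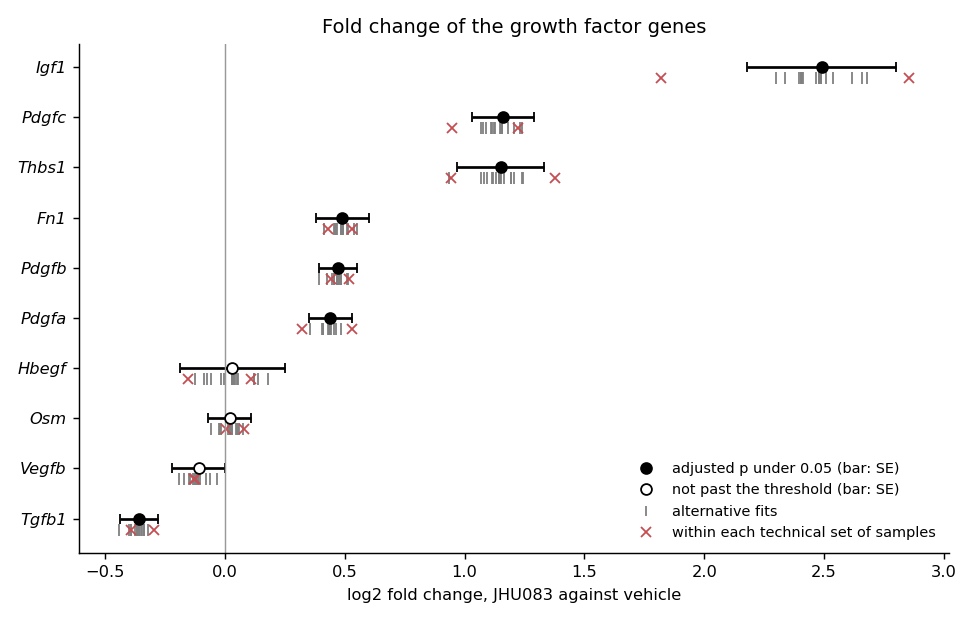
Log2 fold change of JHU083 over vehicle (x axis) for each of the 10 genes: the circle is the edgeR estimate with its SE, filled where the adjusted p is under 0.05, the grey ticks are the alternative fits, including the 10 that each left out 1 sample, and the red crosses are the fits within the samples listed at 0 for the ribosomal locus and within the others. The marks of the 7 called genes all lie on 1 side of 0, and those of Hbegf and Osm fall on both sides.

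The call of each of the 7 factors held in all 10 fits that left out 1 sample. Within the 5 samples listed at 0 for the ribosomal locus (3 vehicle and 2 JHU083), Igf1 rose by 1.82 (adjusted p = 0.00856), Pdgfc by 0.95 (0.00547), Thbs1 by 1.38 (0.0207) and Fn1 by 0.53 (0.047) on the log2 scale, each p adjusted over all loci of that edgeR fit. In the same set Pdgfb (0.44, adjusted p = 0.0701), Pdgfa (0.32, 0.18) and Tgfb1 (-0.30, 0.165) did not pass. Within the other 5 samples (2 vehicle and 3 JHU083), Igf1 rose by 2.85 (0.000409), Pdgfc by 1.22 (0.000663), Thbs1 by 0.94 (0.000917), Pdgfb by 0.52 (0.015) and Pdgfa by 0.53 (0.0188). Tgfb1 fell by 0.39 there (adjusted p = 0.0288), and Fn1 had 0.43 (0.0637). The directions of all 7 were thus the same in both sets. The treated Igf1 values were 59.5 and 120.9 CPM in the samples listed at 0 and 168.6 to 174.6 CPM in the others. Whether the processing behind the listed zeros plays a part in that gap was not tested.

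The factors differed in how evenly replicates expressed them. The coefficient of variation was lowest for Pdgfb in vehicle (3.9%, and 10.7% in JHU083 samples) and highest for Igf1 (40.5% in vehicle and 35.6% in JHU083). Hbegf had 32.4% and 28.8%, and Thbs1 had 18.4% and 32.1%. Within a group, the highest Igf1 sample was 3.11-fold above the lowest in vehicle and 2.94-fold in JHU083. JHU083 replicate 1 was the lowest treated sample for 5 factors (Igf1, Pdgfa, Pdgfc, Hbegf and Vegfb) and the highest for 4 (Pdgfb, Tgfb1, Fn1 and Thbs1). No other sample was at an end of its group for more than 6 of the 10 genes. That replicate thus had the lowest treated values of Igf1 and Pdgfc and the highest of Thbs1, and for each of the 7 called genes it still lay on the treated side of all controls.

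**Figure D3:**
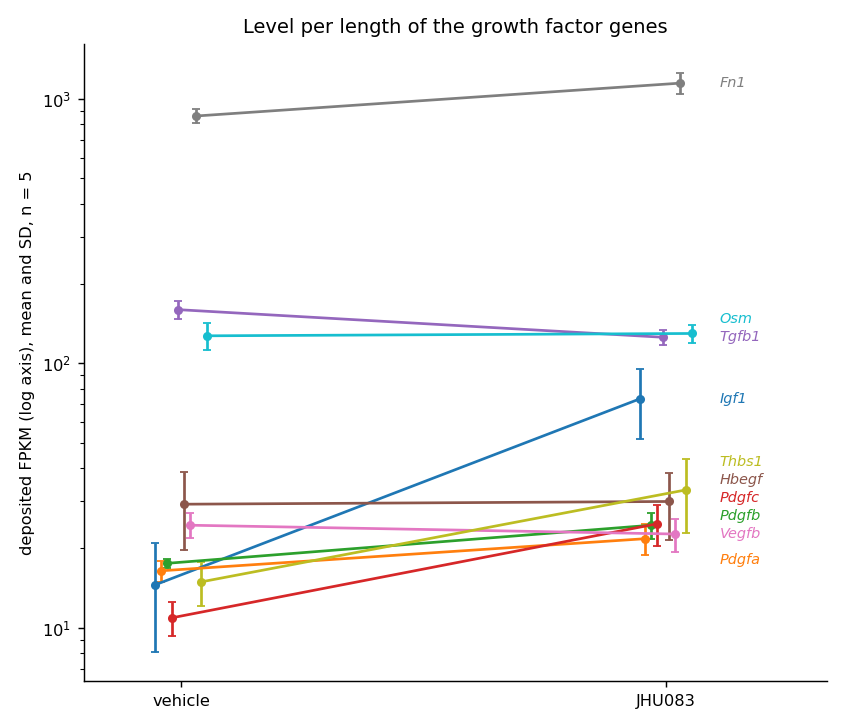
Level per length (deposited FPKM, log axis) of the 10 genes in vehicle and JHU083 samples, with points for group means, bars for the SD (n = 5) and lines joining the means of a gene. Fn1 lies at the top in both groups, and Igf1 moves from rank 9 in vehicle to rank 4 in JHU083.

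Levels were compared between genes per length, on the deposited FPKM (fragments relative to transcript length and library size). In vehicle samples Fn1 was the most abundant at 861.2 ± 50.9 FPKM (SD, n = 5), followed by Tgfb1 at 159.5 ± 13.1 and Osm at 127.0 ± 15.2, each apart from its neighbours in the order. Hbegf at 29.3 ± 9.59 and Vegfb at 24.4 ± 2.65 FPKM overlapped. The lowest genes, Pdgfb (17.5 ± 0.69), Pdgfa (16.4 ± 1.48), Thbs1 (14.9 ± 2.82), Igf1 (14.5 ± 6.41) and Pdgfc (10.9 ± 1.61 FPKM), each overlapped the next in the order. These cells thus held fibronectin transcript far above every other factor of the set.

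In JHU083 samples Fn1 stayed first at 1147 ± 106.5 FPKM (SD, n = 5), and Osm (129.6 ± 10.3) and Tgfb1 (125.4 ± 8.60) now overlapped. Igf1 came at rank 4 with 73.3 ± 21.6 FPKM, apart from Tgfb1 above it and overlapping Thbs1 (33.2 ± 10.4) below it. From Thbs1 down to Pdgfa (21.7 ± 2.86 FPKM), each gene overlapped the next. The mean of Pdgfc was 24.7 ± 4.27 FPKM, against 24.4 ± 2.69 for Pdgfb.

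The receptors, binding proteins and partners of the factors were followed in 7 lists. Of 117 listed genes that could be tested, 23 rose, 29 fell and 65 were not called, with a median log2 fold change of -0.03. That is 44.4% called, against 36.7% of all loci tested in either direction (18.4% higher and 18.3% lower). By list, the share called ran from 35.7% (EGF) to 50.0% (PDGF and VEGF, TGF-beta, and OSM and IL-6). Within the samples listed at 0 for the ribosomal locus the counts were 12 higher and 13 lower, and within the others 19 higher and 25 lower. Of the genes named below as called, Osmr, Lrrc32, Lrp1, Pdgfrb, Tgfbr3 and Adam10 did not pass in either set of 5 samples. Others passed in the samples not listed at 0 but not in those listed at 0, where the edgeR log2 fold changes were 0.41 for Irs2 (adjusted p = 0.241), -1.75 for Igf2r (0.0612), -0.94 for Igfbp7 (0.17), -0.45 for Stc1 (0.642), -1.16 for Pdgfra (0.223) and -0.96 for Vegfc (0.46). In the same samples they were -2.67 for Tgfa (0.125), 0.65 for Itga4 (0.179), -1.25 for Lif (0.0563) and 0.50 for Lifr (0.0957).

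**Figure D4:**
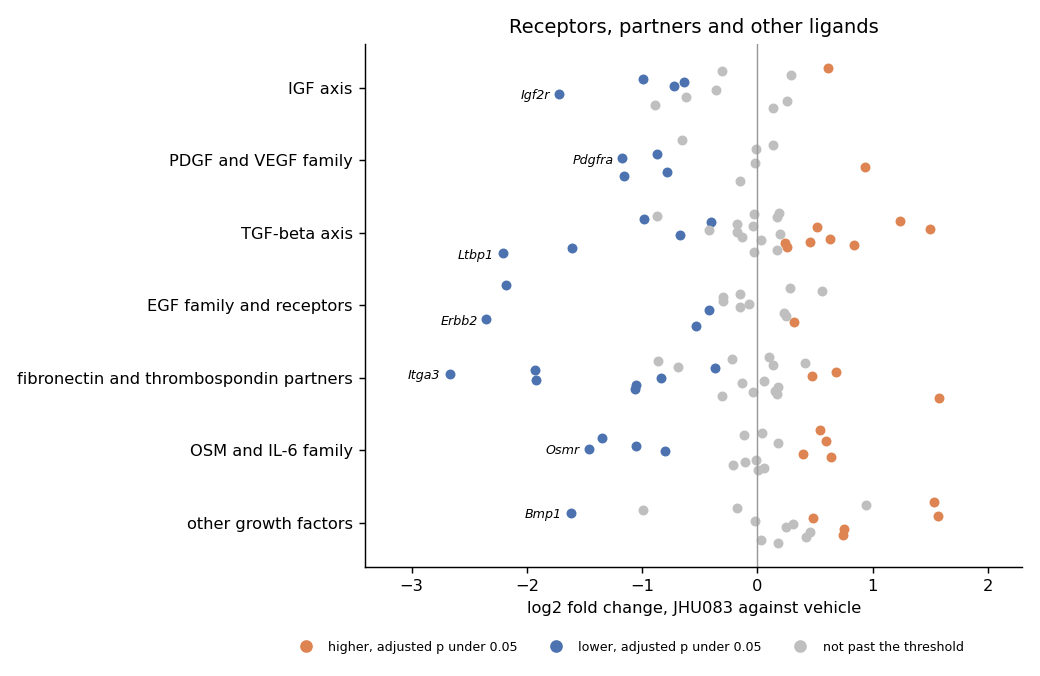
Log2 fold change of JHU083 over vehicle (x axis) for the tested genes of the 7 lists, 1 point per gene, orange where called higher, blue where called lower and grey where not past the threshold; the lowest gene of each list is named. The called genes of the IGF list, the PDGF and VEGF list and the EGF list (4 of 5 in each) and of the fibronectin and thrombospondin partners (7 of 10) lie mostly below 0, and those of the TGF-beta list (8 of 13) and the other growth factors (5 of 6) mostly above it. Among all loci tested, 18.4% were called higher and 18.3% lower.

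In the IGF list, 1 of 12 tested genes rose and 4 fell, with a median of -0.49. Irs2, the adaptor that carries insulin and IGF signals, rose from 123.8 ± 27.3 to 188.3 ± 39.5 CPM (SD, n = 5 each; log2 fold change 0.61 ± 0.16 (SE), adjusted p = 0.0107). Igf2r, the mannose-6-phosphate receptor that clears IGF2, fell from 32.4 ± 13.6 to 9.82 ± 3.31 CPM (-1.72 ± 0.30, adjusted p = 0.000591). Igfbp7, which encodes an IGF-binding protein of the matrix, fell by 0.72 (adjusted p = 0.0232). Its call was lost without vehicle replicate 2 (-0.49, adjusted p = 0.0655) or JHU083 replicate 1 (-0.69, 0.0522). Stc1, an inhibitor of the protease that frees IGF1 from its binding protein, fell from 1.48 to 0.75 CPM (adjusted p = 0.0349), and its call was lost in 8 of 10 fits that left out 1 sample, with the largest adjusted p of 0.092 without vehicle replicate 1. Igf1r, the receptor of IGF1, was at 33.1 ± 6.69 and 36.5 ± 4.76 CPM (0.14 ± 0.13, adjusted p = 0.431). The ligand transcript thus rose while a change of its receptor transcript was not detected.

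In the PDGF and VEGF list, 1 of 10 tested genes rose and 4 fell, with a median of -0.40. Nrp1, a co-receptor of VEGF family ligands, rose from 82.7 ± 16.7 to 157.3 ± 34.1 CPM (SD, n = 5 each; 0.93 ± 0.15 (SE), adjusted p = 0.000432); its locus also lists Mir1903. Pgf, the placental growth factor that shares the receptor FLT1 with VEGF-B, fell from 52.3 ± 7.42 to 28.7 ± 6.19 CPM (-0.87 ± 0.14, adjusted p = 0.000403). The PDGF receptors were low: Pdgfra, on a locus that also lists Mir7025, fell from 3.94 ± 1.37 to 1.74 ± 0.69 CPM (-1.17 ± 0.32, adjusted p = 0.0101), and Pdgfrb from 4.46 ± 0.49 to 2.59 ± 1.10 CPM (-0.78 ± 0.26, adjusted p = 0.0285). These receptors mark fibroblasts and mural cells. The call of Pdgfrb was lost in 4 of 10 fits that left out 1 sample (vehicle replicates 2 and 4 and JHU083 replicates 4 and 5), with the largest adjusted p of 0.0718 without JHU083 replicate 5. Vegfc, a ligand for lymphatic vessels, fell from 1.33 to 0.59 CPM (adjusted p = 0.039), and its call was lost in 8 of 10 such fits (largest adjusted p = 0.106, without vehicle replicate 2). Flt1 had a log2 fold change of -0.65 ± 0.29 (adjusted p = 0.0922) and was not called. It passed without JHU083 replicate 4 (-0.90, adjusted p = 0.0258), with no filter on low counts (-0.65, 0.0222) and with the status at the ribosomal locus as a covariate (-0.80, 0.042). It had -1.29 (0.0321) within the samples listed at 0 for that locus and -0.38, not called, within the others.

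In the TGF-beta list, 8 of 26 tested genes rose and 5 fell, with a median of 0.00. The signalling receptors Tgfbr1 (155.8 ± 10.8 to 278.8 ± 52.7 CPM, SD, n = 5 each; log2 fold change 0.84 ± 0.12 (SE), adjusted p = 0.000115) and Tgfbr2 (276.6 ± 9.45 to 380.0 ± 27.0 CPM; 0.46 ± 0.07, adjusted p = 0.000153) both rose, while their ligand gene Tgfb1 fell. Lrrc32, whose product holds latent TGF-beta on the cell surface, rose from 2.11 ± 1.05 to 4.99 ± 1.72 CPM (1.24 ± 0.33, adjusted p = 0.00919).

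Of the latent TGF-beta binding proteins, which store the cytokine in the matrix, Ltbp1 and Ltbp2 were called and Ltbp3 (-0.18, adjusted p = 0.284) and Ltbp4 (-0.87, 0.0614) were not; the last pair lies outside the rule for named genes and was added after its values were seen. Ltbp1 fell from 27.8 ± 10.3 to 6.00 ± 2.84 CPM (SD, n = 5 each; -2.21 ± 0.33 (SE), adjusted p = 0.000185) and Ltbp2 from 25.9 ± 10.7 to 8.48 ± 3.45 CPM (-1.61 ± 0.31, adjusted p = 0.00138). The co-receptor Tgfbr3, on a locus that also lists Gm43422, fell from 1.70 to 0.85 CPM (adjusted p = 0.0344). Its call was lost in 6 of 10 fits that left out 1 sample, with the largest adjusted p of 0.082 without JHU083 replicate 5.

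In the EGF list, 1 of 14 tested genes rose and 4 fell, with a median of -0.15. The EGF receptor ligand Tgfa fell from 7.20 ± 3.98 to 1.58 ± 1.12 CPM (SD, n = 5 each; -2.18 ± 0.53 (SE), adjusted p = 0.00569), and the receptor tyrosine kinase Erbb2 from 3.81 ± 1.41 to 0.74 ± 0.52 CPM (-2.35 ± 0.41, adjusted p = 0.000597). Rhbdf2, a partner of the sheddase ADAM17, which releases EGF-like ligands, fell from 94.5 ± 4.28 to 65.4 ± 5.61 CPM (-0.53 ± 0.08, adjusted p = 0.000139). Adam10, which encodes another sheddase, rose by 0.32 ± 0.11 (adjusted p = 0.0311), a call lost in 8 of 10 fits that left out 1 sample (largest adjusted p = 0.0802, without vehicle replicate 1). The HB-EGF receptors were scarce: Egfr was at 1.36 ± 0.41 and 1.29 ± 0.29 CPM (adjusted p = 0.869), and Erbb4 did not exceed 0.08 CPM in any sample and was not tested.

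Among the fibronectin and thrombospondin partners, 3 of 23 tested genes rose and 7 fell, with a median of -0.13. Cd36, the scavenger receptor that binds thrombospondin 1, rose from 6.26 ± 0.83 to 18.8 ± 9.03 CPM (SD, n = 5 each; 1.58 ± 0.28 (SE), adjusted p = 0.000635). The integrin subunit Itga4, which binds fibronectin, rose by 0.68 (adjusted p = 0.00663) and the endocytic receptor Lrp1 by 0.47 (0.0124). The other thrombospondin receptor, Cd47, was at 160.7 ± 4.57 and 167.3 ± 11.6 CPM (0.06 ± 0.07, adjusted p = 0.515). The subunits of the classical fibronectin receptor were not called either, with 0.10 for Itga5 (adjusted p = 0.458) and 0.15 for Itgb1 (0.144), and Itgav had 0.18 (0.248). Without JHU083 replicate 3, Itgb1 (0.20, adjusted p = 0.0324) and Itgav (0.27, 0.0442) passed.

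Of the 7 genes of that list that fell, the 3 with the largest falls were an integrin subunit of epithelial cells (Itga3) and a pair of matrix genes. Itga3 fell from 94.7 ± 34.2 to 14.9 ± 6.96 CPM (SD, n = 5 each; -2.67 ± 0.32 (SE), adjusted p = 3.35e-05). Tnc, which encodes tenascin C, fell from 20.8 ± 5.69 to 5.41 ± 2.70 CPM (-1.93 ± 0.31, adjusted p = 0.000364). Fbln2, which encodes fibulin 2, fell from 34.8 ± 12.5 to 9.17 ± 2.87 CPM (-1.92 ± 0.26, adjusted p = 8.5e-05). Fn1 and Thbs1 thus rose in the same samples in which these matrix genes were lower.

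In the OSM and IL-6 list, 4 of 16 tested genes rose and 4 fell, with a median of 0.00. The receptor subunits Il6ra (62.1 ± 3.31 to 96.8 ± 12.4 CPM, SD, n = 5 each; 0.64 ± 0.09 (SE), adjusted p = 0.000136), Il11ra1 (0.60, adjusted p = 0.00395) and Lifr (0.54, 0.00352) rose. Osmr, which encodes an oncostatin M receptor subunit, fell from 3.33 ± 1.47 to 1.20 ± 0.48 CPM (-1.46 ± 0.37, adjusted p = 0.00701), while the shared subunit Il6st was at 53.0 ± 11.6 and 54.4 ± 8.81 CPM (0.04 ± 0.15, adjusted p = 0.861). The related cytokine gene Lif fell by 1.05 ± 0.20 (adjusted p = 0.0011) and the feedback inhibitor Socs1 by 1.35 ± 0.17 (5.17e-05).

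The markers of other cell types moved with treatment too. Among all loci tested, 18.4% were called higher and 18.3% lower. The summed level of 14 epithelial genes, which tumour cells express, was 340.1 to 748.2 CPM in vehicle and 117.3 to 245.1 CPM in JHU083 samples, and all 13 that could be tested fell. The 10 endothelial genes summed to 130.8 to 214.3 and 40.2 to 91.1 CPM (2 of 5 tested fell and 1 rose), with most of the sum from Pecam1, which macrophages also express. The 12 neutrophil genes summed to 341.5 to 751.0 and 174.1 to 349.7 CPM (3 of 7 tested fell and 1 rose), mostly from Mmp9 in vehicle (means of 428.7 CPM in vehicle and 136.5 CPM in JHU083 samples), which macrophages also express. The calprotectin genes S100a9 (16.2 to 3.61 CPM; -2.18, adjusted p = 0.000196) and S100a8 (7.32 to 2.78 CPM; -1.40, 0.000872) fell without overlap, and Csf3r rose from 58.4 to 84.5 CPM. The 12 fibroblast genes summed to 180.6 to 310.8 and 115.9 to 196.0 CPM (5 of 11 tested fell and 1 rose). Itga3, Erbb2, Tgfa, Igf2r, Ltbp1, Ltbp2, Tnc, Fbln2, Osmr and the PDGF receptors fell in samples with lower epithelial and endothelial sums. The fibroblast sums overlapped between the groups, with a median log2 fold change of -0.74 over the tested genes of that list. Of these, Col5a1 (-1.73) and Thy1 (-0.74) fell without overlap, and Fap (0.87) rose without overlap. The part of these other cell types, which the CD45+ CD11b+ F4/80+ sort is meant to remove, was not tested.

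Igf1, Pdgfc, Thbs1, Fn1, Pdgfb and Pdgfa rose in samples where the epithelial sum was lower without overlap. The macrophage sum was higher (5 of 12 genes rose and 0 fell, against 18.4% and 18.3% of all loci tested), with a narrow gap between the groups. Without Lyz2 (6979 to 10458 CPM) the sums overlapped. Platelets store several of these proteins. The 12 platelet genes summed to 125.7 to 157.1 CPM in vehicle and 94.7 to 205.1 CPM in JHU083 samples, which overlapped, with 1 of 5 tested higher and 1 lower. Pf4, which macrophages also express, made up most of that sum (133.4 ± 12.8 and 142.2 ± 50.0 CPM; SD, n = 5 each). Ppbp was the platelet gene called higher (2.51 to 4.10 CPM, adjusted p = 0.0314) and Gp1bb the one called lower (2.98 to 1.52 CPM, 0.00466). Of the other defining genes, Gp6 was at 0 in all samples, and Gp9, Gp1ba, Treml1, Tubb1 and Gp5 did not exceed 0.08, 0.75, 0.69, 0.59 and 0.61 CPM. The T and NK cell list (10 genes) summed to 17.5 to 21.0 and 28.4 to 46.1 CPM, mostly from Cd4, and Cd3d and Cd8a did not exceed 0.63 and 0.46 CPM. The eosinophil, B cell and mast cell lists stayed at or under 20.9 CPM in every sample. Their called genes were Siglecf (adjusted p = 0.0115), Cd79b (0.0498) and Cpa3 (0.0455), which rose, and Mcpt4 (0.0475), which fell, in edgeR.

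**Figure D5:**
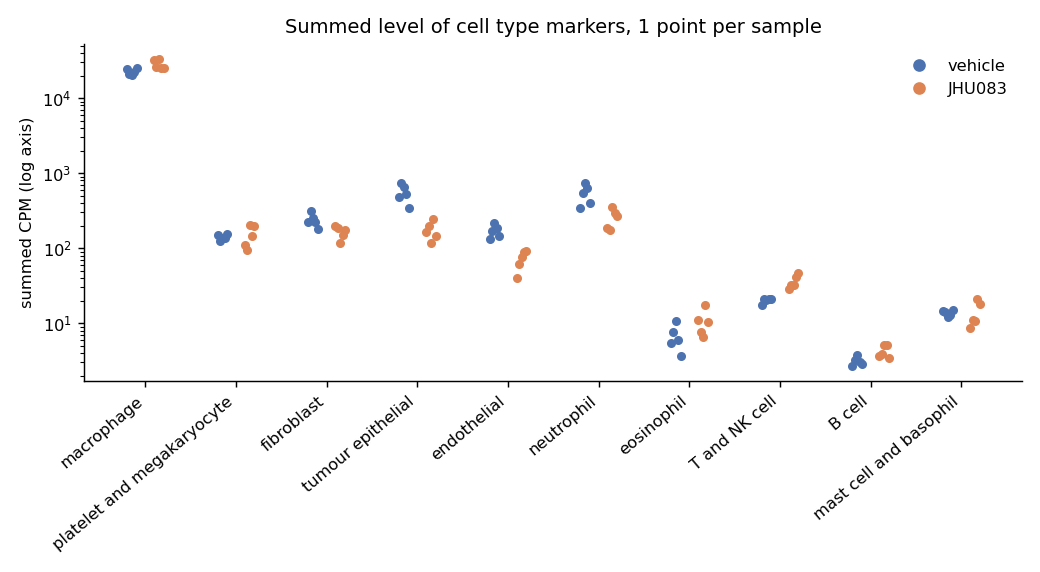
Summed CPM of the markers of each cell type in every sample (log axis), vehicle in blue and JHU083 in orange. The macrophage sum is at least 20244 CPM in all samples, and the epithelial and endothelial sums are lower with JHU083 without overlap.

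GENCODE M21 places antisense genes over exons of Igf1, Pdgfa, Pdgfb, Pdgfc, Fn1 and Thbs1, and the sources used here do not say whether counting used strand. Listed levels of these partners were at most 0.61 CPM for Igf1os, 0.52 for Gm16000 (Pdgfc) and 0.15 for Gm29233 (Thbs1), but up to 16.7 CPM for 6330403L08Rik, opposite Pdgfa, and 35.6 CPM for Apol7d, opposite Fn1. For Gm41361, 1 of 2 genes counted as overlapping Pdgfb, no level is listed. Without strand, fragments of these 6 genes and of their opposite partners cannot be told apart.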

How the data were processed

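RNA was measured in 10 samples, 5 for each treatment, grouped by the labels. Per the submitters' processing notes, bcl2fastq 2.17.1.14, FastQC 0.11.2, TopHat2 2.1.1 and the GRCm38 build were used; the counting program and annotation are not given in the sources used here. The authors deposited expected counts, which per the values are whole fragments multiplied by a factor of each sample. Dividing by that step gave whole numbers (within 0.02) for at least 99.16% of values, and these were rounded. The authors also deposited FPKM values, per the values and file headers, used here only for levels between genes. Loci passing filterByExpr were normalised with TMM and tested with the quasi-likelihood test of edgeR 4.0.16 (R 4.3.3), with Benjamini-Hochberg adjustment at 0.05 over all 12501 loci; the SE is the absolute log2 fold change over the square root of F. Alternatives were DESeq2 1.42.0, limma 3.58.1 (voom), other scalings and filters, the deposited values rounded, the loci listed at 0 left out or used as a covariate, the replicate number as a block and leaving out each sample. Named genes are the 10 factors, their best-known receptors and partners, and the 3 largest called rises and falls of each list; some of these are not reported here. The factors, lists and tests were chosen with earlier results of these data known. Of the loci, 1060 list more than 1 symbol.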

Additional observations from a re-analysis of the deposited data

How the results depend on the processing

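The counts of 6 factors higher and 1 lower were the same under DESeq2, limma-voom, the other scalings and filters and in all 10 fits that left out 1 sample. They changed within the samples listed at 0 (4 higher, 0 lower) and within the others (5 higher). For the lists of partners, leaving out 1 sample gave 22 to 34 higher (34 without JHU083 replicate 3) and 22 to 32 lower, and the samples listed at 0 gave 12 and 13. The replicate numbers do not pair the samples (correlations of -0.56 to -0.14 between samples of the same number, and 0 of 5 numbers matched best); with the replicate number as a block, 6 factors were higher and 1 lower, and 21 partners were higher and 25 lower. Directions that turned belonged to genes that were not called. With library-size scaling, which moves the median of all loci from 0.01 to -0.07, Hbegf had -0.057, Osm -0.057, Il6st -0.044 and Cd47 -0.024. With the covariate, Hbegf had -0.018, Il6st -0.020 and Egfr 0.017. Within the samples listed at 0, Hbegf had -0.15, Il6st -0.15 and Igf1r -0.053, and within the others Egfr had 0.34. Leaving out 1 sample gave -0.12 to 0.18 for Hbegf, -0.026 to 0.073 for Osm, -0.20 to 0.11 for Egfr and -0.04 to 0.15 for Il6st. The cause of these changes was not tested. Among the named called genes of the lists, settings over all 10 samples other than the block ended the calls of Adam10 (library-size scaling and the covariate), Stc1 (no filter) and Vegfc (limma-voom, adjusted p = 0.104), and the block ended those of Adam10, Igfbp7, Vegfc, Tgfbr3 and Lrp1. Depth limits Erbb4, Egfr and the other receptors near 1 CPM.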

Other observations

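Of 16 tested genes of a list of other growth factors, 5 rose and 1 fell, with a median log2 fold change of 0.37; 37.5% were called, against 36.7% of all loci tested. Bmp2, a bone morphogenetic protein, rose from 2.88 ± 0.59 to 8.57 ± 1.74 CPM (SD, n = 5 each; 1.57 ± 0.19 (SE), adjusted p = 2.92e-05 in edgeR). Gdf15, a stress-induced member of the TGF-beta superfamily, rose from 6.27 ± 1.46 to 18.1 ± 3.25 CPM (1.53 ± 0.17, adjusted p = 1.66e-05). Hgf, the hepatocyte growth factor and MET ligand, on a locus that also lists Gm43489, rose from 19.2 ± 4.30 to 32.3 ± 6.42 CPM (0.75 ± 0.17, adjusted p = 0.00338), and had 0.61 (0.159) within the samples listed at 0 for the ribosomal locus. Bmp1, a protease that processes procollagen, fell from 52.8 ± 16.4 to 17.1 ± 5.45 CPM (-1.62 ± 0.24, adjusted p = 0.000176). Bmp1 fell in samples with a lower epithelial sum, and the part of epithelial cells was not tested.

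The ratio of scaled count to FPKM follows the transcript length that the authors' FPKM used. For Igf1 this ratio varied between samples with a coefficient of variation of 11.56%, at percentile 90.3 of 6611 loci (median 2.91%). Relative to its mean it was 0.85 to 1.09 in vehicle and 0.88 to 1.19 in JHU083 samples, so the groups overlapped. For Fn1 the coefficient was 4.99% and for Pdgfa 4.33%.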
